A study of Saccharomyces cerevisiae with 14 samples.

Results

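A set of 9 genes that mark the mating type of budding yeast were examined for nucleosome position and occupancy in strains with an altered SWI/SNF remodeller. They comprise 7 a-specific genes (STE2, MFA1, MFA2, STE6, BAR1, AGA2 and ASG7) and 2 alpha-specific genes (STE3 and SAG1), 9 of 6002 nuclear protein-coding genes. For each gene, every nucleosome call between 1000 bp before the start codon and the stop codon was taken in all strains. The background was 5889 genes whose start codon lies outside the outer 10 kb of a chromosome. The genes were picked by mating-type class and not by a threshold on these values.

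Nucleosomes were mapped by MNase-seq, in which micrococcal nuclease digests the linkers and the protected nucleosomal DNA is sequenced, in 14 samples of strain BY4741 grown in YPD. The 4 altered strains carried the SNF2 mutation labelled dAT (3 samples), named for the AT-hook, the mutation labelled dSnAC (3 samples), named for the SnAC domain, the catalytically dead substitution K798A (CD, 3 samples) or a deletion of SNF2 (dSnf2, 2 samples), and WT had 3 samples. The comparisons address how regions of Snf2, the ATPase of SWI/SNF, contribute to chromatin organisation. The deposited values are 1 list of calls per strain made on merged samples, so no difference between strains has a replicate check, no test was possible, and strain and library cannot be told apart.

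Haploid yeast cells are of mating type a or alpha, and each type secretes a pheromone that the other type senses through a dedicated receptor. In a cells the factor Mcm1 activates the a-specific genes, whereas in alpha cells alpha2 and Mcm1 recruit the Tup1-Cyc8 corepressor to them, and nucleosomes are known to be positioned over STE6 and BAR1 in that repressed state. The alpha-specific genes need the activator alpha1, which only alpha cells make. BY4741 is a MATa strain, so the a-specific genes are the active class here and STE3 and SAG1 the inactive class, from textbook knowledge, since RNA was not measured here.

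The 5 lists held 63263 to 63471 nuclear calls, with a median of 659 reads per call in dSnf2, 957 in CD, 514 in dSnAC, 637 in dAT and 1030 in WT. Occupancy is given relative to the median nuclear call of the same list, which is 1. The coding region of SNF2 had an occupancy of 0.00559 in dSnf2 and 0.731 to 0.796 in the other mutants, against 0.663 in WT. No call lay on the reference copies of HMLALPHA1, HMLALPHA2, MATALPHA1, MATALPHA2 or HMRA2 in any list, and HMRA1 had an occupancy of 1.70 in dSnf2, 1.60 in CD, 1.57 in dSnAC, 1.39 in dAT and 1.86 in WT. The cassettes share sequence and the reference genome carries MATalpha, so the mating type was taken from the strain and not from these calls. The 9 genes held 109 calls in dSnf2, 111 in CD, 106 in dSnAC, 108 in dAT and 108 in WT.

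At the promoters, taken as positions -300 to -1 bp relative to the start codon, 6 of the 7 a-specific genes had a WT occupancy below the all-gene median. Their mutant ratios lay on either side of 0, while the all-gene median ratio was below 0 in every mutant. The median log2 ratio to WT over the 7 a-specific genes was 0.20 in dSnf2, 0.09 in CD, -0.08 in dSnAC and -0.17 in dAT. Over all genes it was -0.08 in dSnf2, -0.15 in CD, -0.23 in dSnAC and -0.30 in dAT. Of the 7 a-specific genes, 7 in dSnf2, 6 in CD, 5 in dSnAC and 5 in dAT had a ratio above the all-gene median. Relative to that median the a-specific median was higher by 0.28 in dSnf2, 0.24 in CD, 0.14 in dSnAC and 0.12 in dAT. Centring on it turned 12 of 36 single ratios round: BAR1, MFA1, MFA2, STE3 and SAG1 in dSnAC, BAR1, MFA1 and SAG1 in dAT, AGA2 and SAG1 in CD, and ASG7 and STE3 in dSnf2.

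No promoter of the 9 genes differed from WT by 1.5-fold, a log2 ratio of 0.58, in any mutant. In the background, 0.73% of genes in dSnf2, 0.526% in CD, 0.323% in dSnAC and 0.221% in dAT were that much higher, and 0.306% in dSnf2, 0.628% in CD, 3.75% in dSnAC and 11% in dAT were that much lower. Against such shares little can be read from an absence among 9 genes. Among the mutants, dSnf2 had the highest promoter occupancy at each of the 9 genes. The all-gene median was likewise highest in dSnf2 among the mutants, with 0.723 in dSnf2, 0.683 in CD, 0.638 in dSnAC, 0.602 in dAT and 0.766 in WT.

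**Figure D1:**
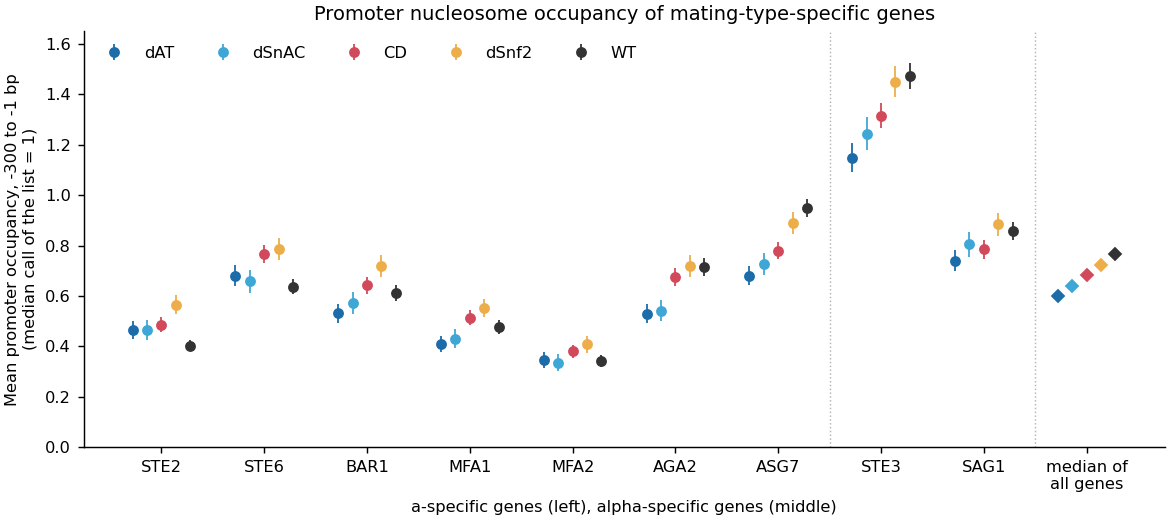
Mean promoter occupancy of the 9 genes at -300 to -1 bp (y axis, median nuclear call = 1), by strain, with dAT leftmost and WT rightmost within each gene. Bars are 95% Poisson intervals (counting error only), and diamonds are all-gene medians. STE2 was lowest in WT at 0.404, whereas ASG7 and STE3 were highest in WT at 0.949 and 1.47.

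STE2 (YFL026W, chromosome VI, 82580 to 83875, plus strand) encodes the alpha-factor receptor of a cells. Its promoter occupancy was 0.566 ± 0.039 in dSnf2, 0.487 ± 0.030 in CD, 0.464 ± 0.040 in dSnAC, 0.464 ± 0.035 in dAT and 0.404 ± 0.023 in WT, where ± is the 95% counting half-width. All 4 mutants lay above WT, with log2 ratios of 0.40 in dSnf2, 0.22 in CD, 0.16 in dSnAC and 0.16 in dAT, although a shorter footprint gave 0.24 in dSnf2, 0.067 in CD, 0.0078 in dSnAC and -0.0097 in dAT. The counting interval of the dSnf2 ratio ran from 0.30 to 0.51, and that of the dAT ratio from 0.05 to 0.27.

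STE2 also had its nucleosomes in other places. The first call upstream of the start codon had its dyad, the centre of the nucleosome, at -72 bp in dSnf2, -78 bp in CD, -74 bp in dSnAC and -81 bp in dAT, against -38 bp in WT. The first call inside the gene had its dyad at 76 bp in dSnf2, 76 bp in CD, 78 bp in dSnAC and 71 bp in dAT, against 122 bp in WT. At both places the 4 mutants lay within 9 bp of each other and at least 34 bp upstream of WT. Further in, the mutants had a call at 226 to 229 bp, then at 384 to 388 bp, while WT had its next calls at 318 and 469 bp. Under the matching rule, which pairs mutual nearest dyads within 73 bp, the WT call at 318 bp was paired with the mutant calls at 384 to 388 bp, close to that limit, so the size and direction of this displacement depend on the pairing.

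The upstream side of STE2 differed in occupancy as well as in place. The dyad lay at -465 bp in dSnf2, -461 bp in CD, -464 bp in dSnAC and -464 bp in dAT, against -508 bp in WT. That call had an occupancy of 1.21 in dSnf2, 1.10 in CD, 0.737 in dSnAC, 0.741 in dAT and 0.519 in WT. The log2 ratio was 1.22 in dSnf2, 1.09 in CD, 0.51 in dSnAC and 0.51 in dAT, so CD and dSnf2 had over 1.5 times the WT level. This call lies in the upstream region shared with GYP8, the divergent neighbour, whose start codon is at -668 bp of STE2. The promoter of GYP8, chosen after its values were seen, had an occupancy of 0.776 in dSnf2, 0.690 in CD, 0.522 in dSnAC, 0.515 in dAT and 0.401 in WT. That window contains the call just described, so the GYP8 values count the same reads again and are not a separate observation.

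**Figure D2:**
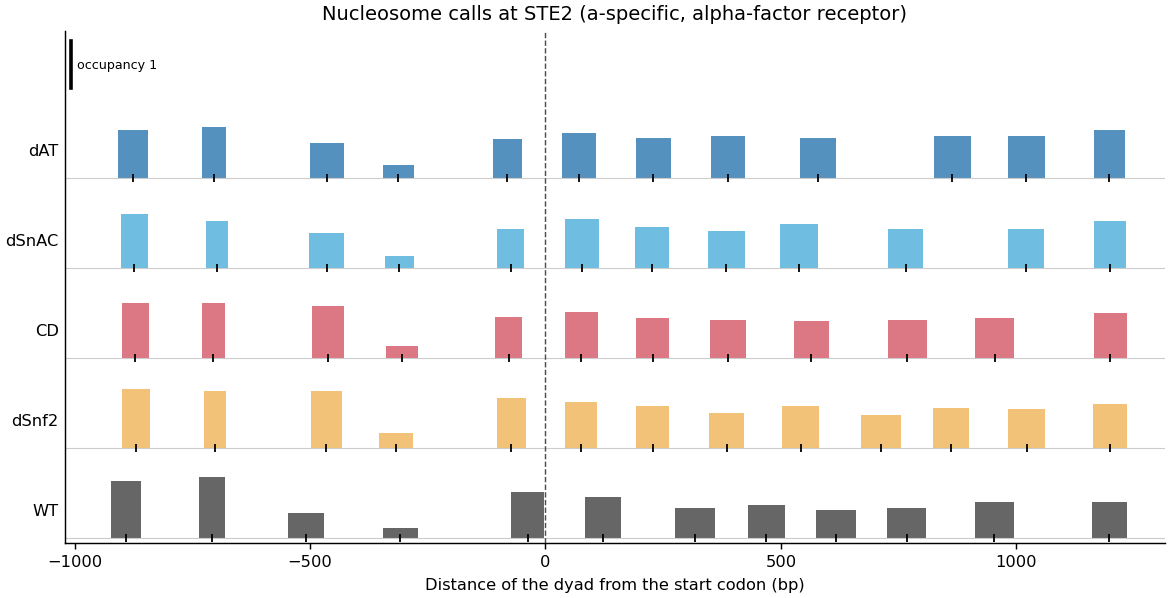
Nucleosome calls at STE2 in the 5 strains, by distance of the dyad from the start codon (x axis, bp, dashed line at 0). Each box spans the dyad ± 1 SD of the dyads of its reads, and its height is the occupancy, with a bar for an occupancy of 1. The mutant dyads at -81 to -72 bp and at 71 to 78 bp sit upstream of the WT dyads at -38 and 122 bp, and the call near -464 bp is tallest in dSnf2 and CD.

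Counted over the gene, 8 of 11 matched STE2 calls in dSnf2, 6 of 11 in CD, 6 of 11 in dSnAC and 6 of 10 in dAT lay 20 bp or more from WT. Over all genes, 8.89% of matched calls in dSnf2, 8.75% in CD, 8.43% in dSnAC and 8.88% in dAT did so. At least 50% of the calls were displaced that far at 1.29% of genes in dSnf2, 1.41% in CD, 1.05% in dSnAC and 1.24% in dAT, and STE2 was among them in each mutant. Of 9 STE2 calls matched in all 4 mutants, 4 were displaced by 20 bp or more in the same direction in every mutant, which held for 2.5% of such calls over all genes. The direction was not the same from call to call. These 4 include the WT call at 318 bp, whose displacement depends on the pairing. All 4 comparisons share the WT list, so a feature of that list alone would appear in each of them. With pairs limited to 50 bp, the STE2 counts were 4 of 7 in dSnf2, 4 of 9 in CD, 3 of 8 in dSnAC and 3 of 7 in dAT. Only in dSnf2 were at least 50% of the STE2 calls then displaced. The all-gene shares given here are for the 73 bp limit. The widest distance between dyads upstream of STE2, a measure of its nucleosome-depleted region, was 245 bp in dSnf2, 226 bp in CD, 236 bp in dSnAC, 231 bp in dAT and 270 bp in WT. Its upstream edge was a weak call, with an occupancy of 0.202 in WT, below 0.25, and 0.261 to 0.320 in the mutants. The width thus depends on whether such calls are kept, and a weak call also lies at AGA2, as given below. With all calls kept, STE2 was the only one of the 9 genes narrower by 20 bp or more, in each mutant. Over all genes that held for 6.05% in dSnf2, 6.76% in CD, 7.7% in dSnAC and 8.55% in dAT. Across the 9 genes, 8 widths moved with the settings and 64 did not. None of the 9 was wider by as much, against 6.54% of genes in dSnf2, 6.5% in CD, 8.24% in dSnAC and 9.26% in dAT.

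The receptor of the opposite mating type gave another picture. STE3 (YKL178C, chromosome XI, 113215 to 114627, minus strand) encodes the a-factor receptor of alpha cells. Its promoter had the highest occupancy of the 9 genes in every strain, at 1.45 ± 0.06 in dSnf2, 1.32 ± 0.05 in CD, 1.24 ± 0.07 in dSnAC, 1.15 ± 0.06 in dAT and 1.47 ± 0.05 in WT. Relative to WT the log2 ratio was -0.02 in dSnf2, -0.15 in CD, -0.23 in dSnAC and -0.33 in dAT, within 0.07 of the all-gene median in each mutant. Its promoter nucleosomes were sharply placed and did not differ in position by more than 3 bp. The call centred at -240 bp in WT lay at -240 bp in dSnf2, -238 bp in CD, -237 bp in dSnAC and -237 bp in dAT. The SD of the dyads of its reads was 12.8 bp in dSnf2, 12.6 bp in CD, 13.2 bp in dSnAC, 12.4 bp in dAT and 13.0 bp in WT. For comparison, the median call of a list had a dyad SD of 29.5 to 30.0 bp.

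Of 13 matched STE3 calls, 3 in dAT were 1.5-fold below WT or more, against 8.07% of matched calls over all genes. The one near -878 bp also passed that size in dSnAC (log2 ratio -0.61) and in CD (-0.59), where 4.87% and 2.51% of all calls did. The call near -878 bp, in the gene's upstream region next to the end of LST4, had an occupancy of 1.14 in dSnf2, 0.859 in CD, 0.846 in dSnAC, 0.658 in dAT and 1.30 in WT. The call near -66 bp had 1.31 in dSnf2, 1.16 in CD, 1.07 in dSnAC, 0.889 in dAT and 1.36 in WT. The call near 799 bp, inside the gene, had 1.14 in dSnf2, 0.967 in CD, 0.848 in dSnAC, 0.692 in dAT and 1.25 in WT. At all 3 places occupancy increased in the order dAT, dSnAC, CD, dSnf2 and WT, with dSnf2 closest to WT. The 3 calls were picked for being low in dAT relative to WT, so those ends of the order follow from the choice. The all-gene median of promoter occupancy had the same order, so it is not a trait of STE3.

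The pheromone genes of a cells, MFA1 and MFA2, encode the a-factor precursors and are very short. MFA1 (YDR461W, chromosome IV, 1385176 to 1385286, plus strand) had a promoter occupancy of 0.553 in dSnf2, 0.514 in CD, 0.431 in dSnAC, 0.409 in dAT and 0.476 in WT. As a log2 ratio to WT this was 0.18 in dSnf2, 0.09 in CD, -0.12 in dSnAC and -0.18 in dAT, so dAT and dSnAC lay below WT, and CD and dSnf2 above it. For dSnAC and CD the counting interval included 0. MFA1 dyads lay within 5 bp of WT, except that the call at -765 bp in WT was at -745 bp in dSnf2 and -758 bp in dAT. However, the call at 82 bp had a dyad SD of 26.4 bp in dSnf2, 26.0 bp in CD, 26.2 bp in dSnAC and 25.6 bp in dAT, against 34.6 bp in WT.

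MFA2 (YNL145W, chromosome XIV, 352414 to 352530, plus strand) had the lowest promoter occupancy of the 9 genes in every strain, at 0.408 in dSnf2, 0.380 in CD, 0.336 in dSnAC, 0.347 in dAT and 0.343 in WT. The log2 ratio was 0.20 in dSnf2, 0.12 in CD, -0.02 in dSnAC and 0.01 in dAT. A larger difference lay just outside that window. The call at -407 to -410 bp in the mutants and -420 bp in WT had an occupancy of 0.965 in dSnf2, 0.832 in CD, 0.527 in dSnAC, 0.477 in dAT and 0.461 in WT. Its log2 ratio was 1.07 in dSnf2, 0.85 in CD, 0.19 in dSnAC and 0.05 in dAT, so CD and dSnf2 stood apart from the other 3 lists. The call lies about where YNL146W, the upstream neighbour on the same strand, ends at -397 bp.

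STE6 (YKL209C, chromosome XI, 42423 to 46295, minus strand) encodes the ABC transporter that exports a-factor. Its promoter occupancy was 0.788 in dSnf2, 0.767 in CD, 0.659 in dSnAC, 0.681 in dAT and 0.637 in WT. Relative to WT the log2 ratio was 0.27 in dSnf2, 0.23 in CD, 0.04 in dSnAC and 0.08 in dAT. The dAT and dSnAC ratios had counting intervals that included 0, and they were -0.17 and -0.14 when the window began at -400 bp.

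The calls on either side of the STE6 start codon were higher in the mutants, and the next call upstream was lower. The call near -65 bp had an occupancy of 1.49 in dSnf2, 1.50 in CD, 1.28 in dSnAC, 1.34 in dAT and 1.12 in WT. The call near 100 bp had 1.14 in dSnf2, 1.17 in CD, 1.16 in dSnAC, 1.20 in dAT and 0.946 in WT. In both calls every mutant lay above WT. The call near -335 bp had an occupancy of 0.863 in dSnf2, 0.672 in CD, 0.578 in dSnAC, 0.452 in dAT and 0.949 in WT. Its log2 ratio was -1.07 in dAT, -0.72 in dSnAC and -0.50 in CD. In dSnf2 it was -0.14, with a counting interval of -0.28 to 0.01 that included 0. Further inside the gene, the call near 260 bp had an occupancy of 1.38 in dSnf2, 1.43 in CD, 1.45 in dSnAC, 1.51 in dAT and 0.987 in WT. That call was also narrower, with a dyad SD of 22.1 bp in dSnf2, 23.8 bp in CD, 26.5 bp in dSnAC and 24.7 bp in dAT, against 34.3 bp in WT. Dyads of the calls near -335 and 260 bp lay within 2 bp of WT, so occupancy and sharpness differed here without a change of place.

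BAR1 (YIL015W, chromosome IX, 322342 to 324105, plus strand) encodes the secreted protease that degrades alpha-factor. Its promoter occupancy was 0.719 in dSnf2, 0.643 in CD, 0.572 in dSnAC, 0.531 in dAT and 0.612 in WT. As a log2 ratio to WT this was 0.20 in dSnf2, 0.06 in CD, -0.08 in dSnAC and -0.17 in dAT, with counting intervals that included 0 in dSnAC and CD. No matched call of BAR1 was 1.5-fold from WT, but the gene had narrower calls along its whole length. The median difference of dyad SD over its calls was -5.53 bp in dSnf2, -3.64 bp in CD, -4.27 bp in dSnAC and -3.44 bp in dAT, each minus WT. Of 14 BAR1 calls matched in all 4 mutants, 13 had a lower dyad SD in each mutant than in WT.

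The agglutinins are cell-surface glycoproteins that hold mating partners together. AGA2 (YGL032C, chromosome VII, 436570 to 436833, minus strand) encodes the binding subunit of a-agglutinin. Its promoter occupancy was 0.719 in dSnf2, 0.675 in CD, 0.542 in dSnAC, 0.529 in dAT and 0.714 in WT. The log2 ratio was 0.01 in dSnf2, -0.07 in CD, -0.34 in dSnAC and -0.37 in dAT.

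Besides STE2, AGA2 was the only a-specific gene with upstream calls displaced by 20 bp or more in all 4 mutants. The first dyad upstream of the start codon was at -123 bp in dSnf2, -123 bp in CD, -122 bp in dSnAC and -125 bp in dAT, against -98 bp in WT. The first dyad inside the gene, nearer to the start codon, was at 58 to 62 bp in the mutants and 72 bp in WT. The next substantial call upstream was at -434 bp in dSnf2, -434 bp in CD, -431 bp in dSnAC and -432 bp in dAT, against -500 bp in WT. This upstream pair lies close to the matching limit. With the first displacement, the widest distance between dyads fell at another place, between -123 and 58 bp in dSnf2 (181 bp), -123 and 58 bp in CD (181 bp), -122 and 62 bp in dSnAC (184 bp) and -125 and 59 bp in dAT (184 bp), against -270 and -98 bp in WT (172 bp). A weak call, at -274 to -270 bp in the mutants and -270 bp in WT, had an occupancy of 0.0914 to 0.121 in the mutants and 0.121 in WT. It bounds the WT distance, and in the mutants it splits the stretch upstream of the -125 to -122 bp dyads. The place and width of the widest distance therefore depend on this weak call in every list.

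SAG1 (YJR004C, chromosome X, 442909 to 444861, minus strand) encodes alpha-agglutinin, the partner of AGA2 on alpha cells. Its promoter occupancy was 0.884 in dSnf2, 0.785 in CD, 0.806 in dSnAC, 0.740 in dAT and 0.857 in WT. Relative to WT the log2 ratio was 0.04 in dSnf2, -0.11 in CD, -0.08 in dSnAC and -0.19 in dAT, and no matched call was 1.5-fold from WT. Its upstream calls at -766, -603 and -425 bp in WT lay within 1 bp of those places in every mutant. Their dyad SD was 14.6 to 17.4 bp in the mutants and 15.5 to 16.4 bp in WT, so SAG1 resembled STE3 in having sharp upstream calls that kept their place.

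ASG7 (YJL170C, chromosome X, 101150 to 101779, minus strand) encodes an a-cell protein that dampens signalling by the G protein beta subunit after mating. Its promoter occupancy was 0.890 in dSnf2, 0.780 in CD, 0.728 in dSnAC, 0.680 in dAT and 0.949 in WT. As a log2 ratio to WT this was -0.08 in dSnf2, -0.25 in CD, -0.34 in dSnAC and -0.43 in dAT. ASG7 was the only a-specific gene with a ratio below 0 in all 4 mutants, although centring gave 0.0018 in dSnf2. A ratio below 0 was usual, at 80.4% of all genes in dSnf2, 87.0% in CD, 89.0% in dSnAC and 89.9% in dAT. The ASG7 difference sat on the call near -270 bp, with an occupancy of 1.23 in dSnf2, 1.07 in CD, 0.831 in dSnAC, 0.749 in dAT and 1.36 in WT. The call near -42 bp differed less, with 1.26 in dSnf2, 1.17 in CD, 1.21 in dSnAC, 1.19 in dAT and 1.25 in WT.

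**Figure D3:**
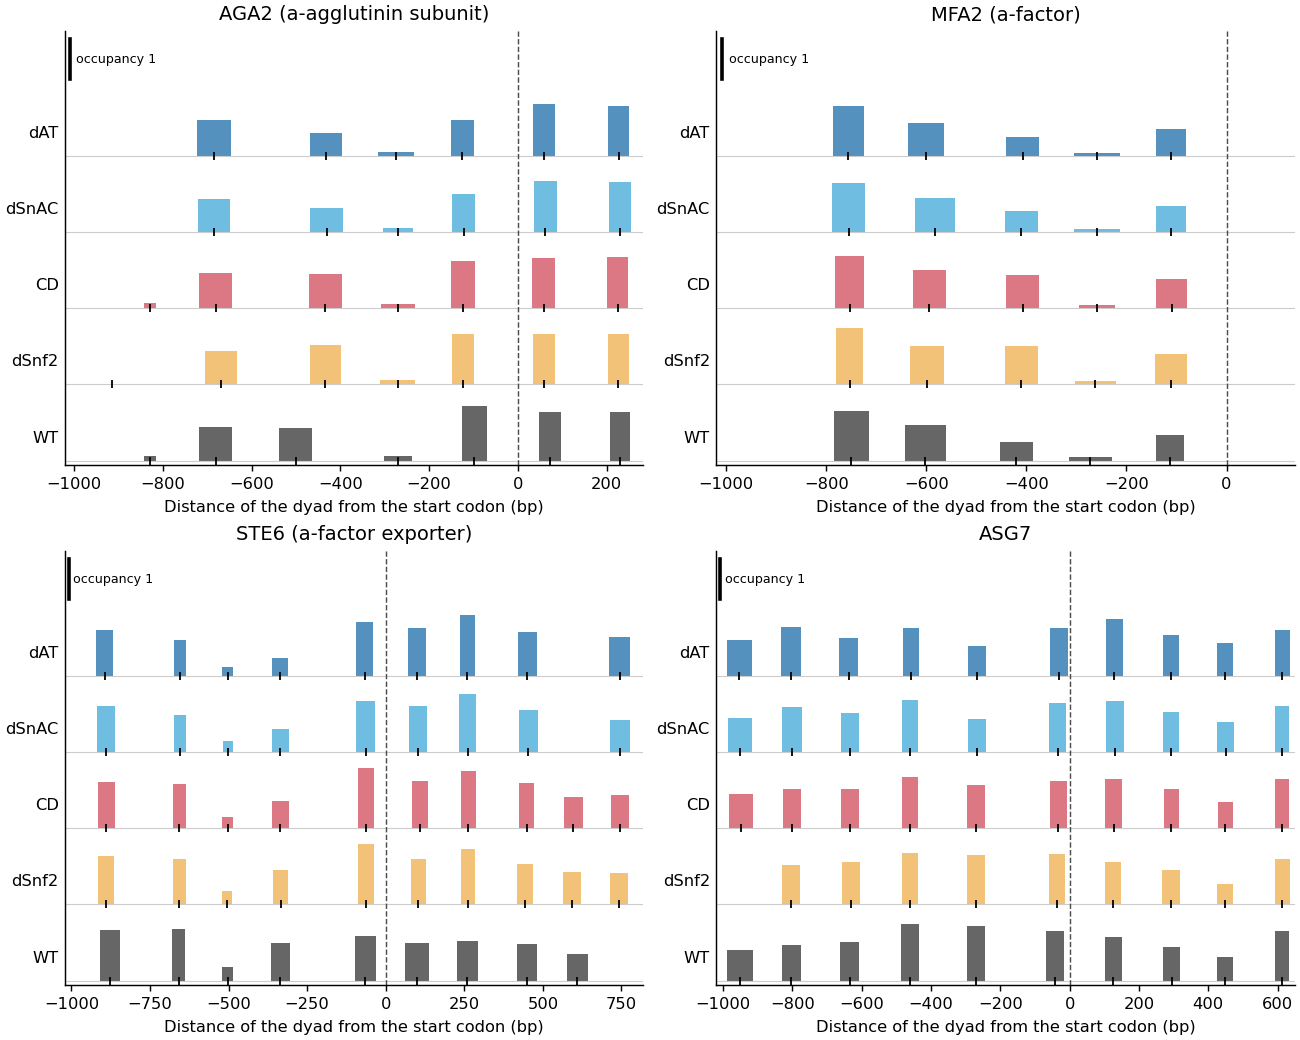
Nucleosome calls at AGA2, MFA2, STE6 and ASG7 in the 5 strains, by distance of the dyad from the start codon (x axis, bp, dashed line at 0). Boxes span the dyad ± 1 SD, with height the occupancy, tick marks are dyads, and STE6 is drawn for the start of the gene only. The AGA2 dyads near -123 bp in the mutants against -98 bp in WT, and the low dAT call near -335 bp of STE6, are visible.

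**Figure D4:**
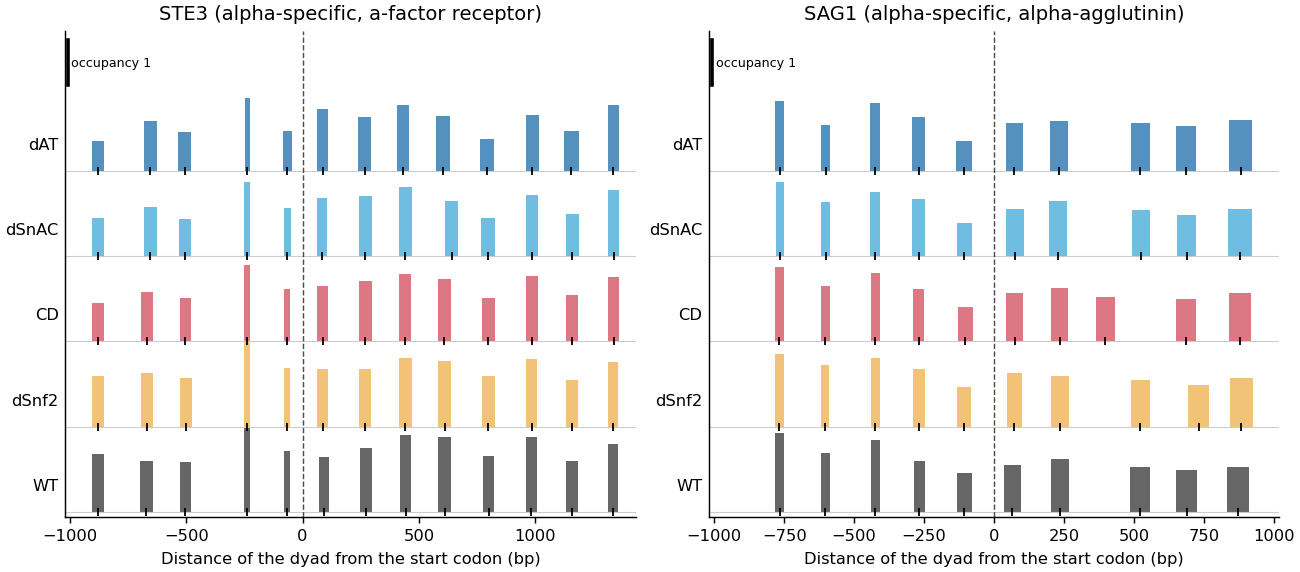
The same map for the alpha-specific genes STE3 and SAG1. The narrow STE3 box near -240 bp stays within 3 bp of the WT dyad in every mutant, and the narrow SAG1 boxes at -766, -603 and -425 bp stay within 1 bp.

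Across the genes, dyad SD was mostly lower than in WT at the a-specific genes and not at the alpha-specific genes. In these lists a lower SD means that the reads of a call were placed more tightly around its dyad. Of the matched a-specific calls, 60 of 75 in dSnf2 (80.0%), 64 of 77 in CD (83.1%), 63 of 74 in dSnAC (85.1%) and 60 of 75 in dAT (80.0%) had a lower SD than in WT. The alpha-specific counts were 14 of 28 in dSnf2, 12 of 27 in CD, 8 of 28 in dSnAC and 6 of 28 in dAT. Over all genes the share was 51.4% in dSnf2, 53.1% in CD, 44.7% in dSnAC and 42.7% in dAT, so the a-specific share lay above the background in each mutant. The comparison was chosen after the values were seen, and calls of a gene are not independent of each other. Every mutant was set against the same WT list. The median coding dyad SD in WT was 41.2 bp at STE2, 38.0 bp at STE6 and 34.5 bp at BAR1. It was 34.1 bp at SAG1, 24.7 bp at STE3 and 23.6 bp at ASG7, against 29.1 bp over all genes. The background calls were not matched for their SD in WT, and the part of that starting level was not tested.

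The size of the SD difference was modest. Its median over a-specific calls was -2.07 bp in dSnf2, -2.43 bp in CD, -2.38 bp in dSnAC and -2.09 bp in dAT, where the median 95% counting half-width of a single call was 2.19 to 2.50 bp. Single calls were lower by more than their counting half-width in 39 cases in dSnf2, 38 in CD, 35 in dSnAC and 34 in dAT, and higher by that much in 4 in dSnf2, 1 in CD, 1 in dSnAC and 3 in dAT. For the alpha-specific calls those numbers were 4 lower and 6 higher in dSnf2, 1 and 7 in CD, 2 and 8 in dSnAC, and 0 and 12 in dAT. Leaving out STE2 gave shares of 79.7% in dSnf2, 81.8% in CD, 84.1% in dSnAC and 76.9% in dAT. The WT and CD lists merge 3 samples each and the other lists 2, and the part of merging in the dyad SD was not tested.

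The genes were unlike each other in this respect. Calls with a lower SD in every mutant were 8 of 9 at STE2, 17 of 22 at STE6, 13 of 14 at BAR1, 4 of 6 at MFA1, 3 of 5 at MFA2, 2 of 6 at AGA2 and 4 of 9 at ASG7. At STE3 the count was 0 of 13, and at SAG1 it was 1 of 14. Over all genes 21.9% of such calls were lower in every mutant. STE2, STE6 and BAR1, the longest a-specific genes, thus had most of the narrower calls. Among the 6 genes with at least 3 coding calls in every list, which leaves out MFA1, MFA2 and AGA2, a median coding dyad SD lower than WT by 5 bp or more occurred at BAR1 in dSnf2 (-5.23 bp) only. Over all genes with at least 3 coding calls, such a lower median occurred at 0.989% in dSnf2, 0.791% in CD, 0.713% in dSnAC and 0.555% in dAT. Outside that set, the single matched coding call of MFA1 was lower than WT by more than 5 bp in all 4 mutants, as given above. Those shares are for gene medians and do not apply to a single call.

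**Figure D5:**
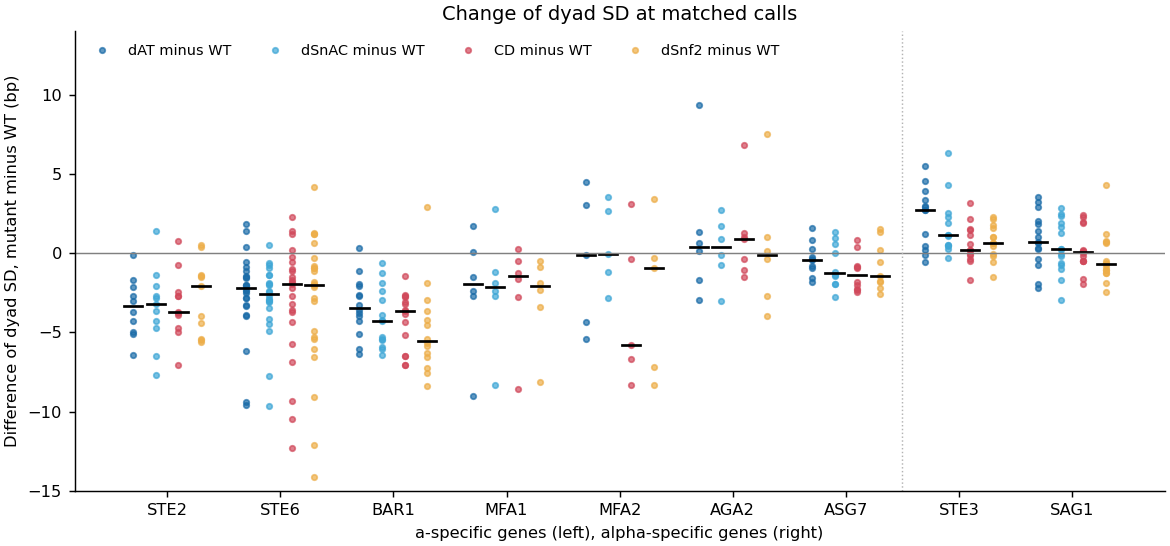
Difference of dyad SD, mutant minus WT (y axis, bp), for each matched call (points) of the 9 genes, by mutant. Black bars are medians over the calls of a gene. Most STE2, STE6 and BAR1 points lie below 0, and STE3 medians lie above 0.

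Displacement beyond STE2 was near the background in CD, dSnAC and dAT, and above it in dSnf2. Of the matched a-specific calls, 16 of 75 in dSnf2 (21.3%), 12 of 77 in CD (15.6%), 11 of 74 in dSnAC (14.9%) and 11 of 75 in dAT (14.7%) were displaced by 20 bp or more. Without STE2 the share was 12.5% in dSnf2, 9.09% in CD, 7.94% in dSnAC and 7.69% in dAT, so most of the excess lay at STE2. Over all genes it was 8.89% in dSnf2, 8.75% in CD, 8.43% in dSnAC and 8.88% in dAT. At AGA2, 2 of 6 matched calls were displaced in dSnf2, dSnAC and dAT, and 2 of 7 in CD. Shares that high or higher occurred at 4.11% of genes in dSnf2, 5.25% in CD, 3.89% in dSnAC and 4.12% in dAT. Alpha-specific calls were displaced in 1 of 28 cases in dSnf2, 0 of 27 in CD, 2 of 28 in dSnAC and 0 of 28 in dAT. Differences of 1.5-fold in occupancy were few. Of the a-specific calls, 3 were higher and 0 lower in dSnf2, 2 and 0 in CD, 0 and 2 in dSnAC, and 1 and 4 in dAT. In the background, 0.721% of calls were higher and 1.61% lower in dSnf2, 0.772% and 2.51% in CD, 1.47% and 4.87% in dSnAC, and 3.26% and 8.07% in dAT.

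Within the coding regions, the longer a-specific genes had more nucleosome signal in the mutants and STE3 had less. STE2 had a coding occupancy of 0.778 in dSnf2, 0.691 in CD, 0.719 in dSnAC, 0.724 in dAT and 0.585 in WT. STE6 had 0.756 in dSnf2, 0.806 in CD, 0.732 in dSnAC, 0.808 in dAT and 0.650 in WT. BAR1 had 0.938 in dSnf2, 0.990 in CD, 0.933 in dSnAC, 0.950 in dAT and 0.809 in WT. In these 3 genes every mutant lay above WT, with log2 ratios of 0.15 to 0.36. The all-gene median of the coding ratio was -0.0026 in dSnf2, 0.0098 in CD, 0.026 in dSnAC and 0.034 in dAT. A higher coding ratio was not particular to a-specific genes. The regulators MCM1, TUP1 and CYC8 had a median of 0.24 in dSnf2, 0.33 in CD, 0.34 in dSnAC and 0.45 in dAT. Over the 7 a-specific genes it was 0.05, 0.13, 0.18 and 0.21 in the same order. The other pathway lists described below had medians of -0.095 to 0.19. STE3 had 1.12 in dSnf2, 1.08 in CD, 1.05 in dSnAC, 0.998 in dAT and 1.22 in WT, so every mutant lay below WT. No gene of the 9 passed 1.5-fold, which 0.255% of genes were above in dSnf2, 0.391% in CD, 0.458% in dSnAC and 0.815% in dAT, and 0.119% below in dSnf2, 0.119% in CD, 0.272% in dSnAC and 0.645% in dAT. ASG7 had 0.800 in dSnf2, 0.917 in CD, 0.947 in dSnAC, 1.00 in dAT and 0.828 in WT, with dSnf2 as the exception below WT. SAG1 lay between 0.828 and 0.904 in the mutants, against 0.827 in WT.

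The mating pathway around these genes was described by promoter counts. Among 3 other alpha-specific genes, AFB1 had a log2 ratio of -0.59 in dAT, and the alpha-factor genes MF(ALPHA)1 and MF(ALPHA)2 had -0.26 and -0.14 in dAT. Of 7 a-factor maturation genes, RCE1, which trims prenylated precursors, was 1.5-fold lower in dAT (-0.60), and the others lay between that value and -0.04, the ratio of the farnesyltransferase gene RAM2. Of 3 alpha-factor processing genes none was 1.5-fold lower, with STE13 at -0.49 and KEX2 at -0.32 in dAT. The signalling core of 12 genes held FAR1, which arrests the cell cycle, at -0.99 in dAT and -0.65 in dSnAC, and SST2, which switches the G protein off, at 0.52 in dSnf2, 0.57 in CD, 0.38 in dSnAC and 0.40 in dAT. SST2 was the highest of the 12 in every mutant. Its promoter had an occupancy of 0.689 in dSnf2, 0.712 in CD, 0.612 in dSnAC, 0.623 in dAT and 0.449 in WT.

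Of 6 genes induced by pheromone, FIG1 (-0.79) and PRM1 (-0.59), both with roles in cell fusion, were 1.5-fold lower in dAT, with KAR4 at -0.33 the highest. The list medians in dAT were -0.50 for the induced genes, -0.31 for the signalling core, -0.21 for a-factor maturation, -0.42 for alpha-factor processing, -0.22 for the regulators, -0.32 for the silencing genes and -0.26 for the other alpha-specific genes, against -0.30 for all genes. Among 3 regulators of cell-type genes, MCM1 was at -0.60 in dAT and TUP1 at -0.21. Of 4 silencing genes, SIR2, a histone deacetylase gene, was at -1.13 in dSnf2, the lowest ratio of all 5889 genes in that mutant. SIR2 was at -0.22 in CD, -0.27 in dSnAC and -0.36 in dAT. In dAT, SIR4 was the lowest of the 4 at -0.51 and SIR1 the highest at -0.14. No gene of these lists was 1.5-fold higher in any mutant, and besides FAR1 in dSnAC and SIR2 in dSnf2, those 1.5-fold lower were all in dAT. Over all genes the lower share was likewise largest in dAT, at 11%, against 3.75% in dSnAC, 0.628% in CD and 0.306% in dSnf2, so nothing about these lists is read from where the lower genes fell.

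By promoter occupancy over the 5 lists, the genes most like ASG7 were YOR012W, YPL039W and JEM1, at Euclidean distances of 0.0423, 0.0484 and 0.0488 on the scale of log2(occupancy + 0.1). For STE3 they were CLB6, RCK1 and GRX1, at 0.0641, 0.0964 and 0.108. ASG7 and STE3 were the a-specific and the alpha-specific gene with the largest mean absolute log2 ratio. The nearest to ASG7, YOR012W, had an occupancy of 0.897 in dSnf2, 0.781 in CD, 0.728 in dSnAC, 0.671 in dAT and 0.922 in WT.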

How the data were processed

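The authors deposited 1 list of nucleosome calls per strain, made on merged samples per the labels (dAT replicates 2 and 3, dSnAC 1 and 3, CD 1 to 3, dSnf2 1 and 2, WT 1 to 3). Replicate 1 of dAT and replicate 2 of dSnAC are named in no list. Bowtie and build sacCer3 are named per the submitters' processing notes, with no caller given in the sources used here. Per the file headers, a call has a dyad and its SD in bp, other deposited values here, and an occupancy, a deposited coverage signal. The deposited conditional position, a fraction, was not used.

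All occupancies were whole multiples of the smallest value in their list within 0.01 (100% of calls), read here as reads: 41240133 in dSnf2, 59767406 in CD, 31881933 in dSnAC, 39312292 in dAT and 64981328 in WT. Poisson 95% intervals use them and cover counting error only. The interval of a dyad SD also uses the number of reads and assumes normally spread dyads.

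Occupancy was divided by the median nuclear call outside the ribosomal DNA (chromosome XII, 451000 to 469000) and drawn as 147 bp footprints. Ratios were log2((mutant + 0.1) / (WT + 0.1)) for promoters and coding regions, which understates changes at low occupancy, and a ratio of the 2 values for matched calls. Dyads were paired as each other's nearest within 73 bp. Depleted regions were the widest distances between dyads whose midpoint lay between -350 and 50 bp.

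Gene positions came from RefSeq (R64, which is sacCer3), with strand read from the systematic name. It has no transcription start sites. Python 3.11.15, numpy 2.4.6, pandas 2.3.3, scipy 1.17.1 and matplotlib 3.10.9 were used, and the scripts were tested on simulated data. The genes and lists were chosen with earlier results of these data known. Coding occupancy, the dyad SD counts and the share of displaced calls per gene were added after the values were seen. From the pathway lists, the text names the genes past 1.5-fold and the highest and lowest gene of each list in dAT, and for ASG7 and STE3 the 3 nearest genes. A planned search of promoter motifs was not run, since promoter sequences were not used here.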

Additional observations from a re-analysis of the deposited data

How the results depend on the processing

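No paired analysis was possible because the lists merge the replicates, and for the same reason no replicate could be left out. Centring on the all-gene median gave a-specific promoter medians of 0.12 in dAT, 0.14 in dSnAC and 0.24 in CD, and changed the sign of 12 of 36 gene ratios, none past 1.5-fold. Windows of 200 and 400 bp changed 1 and 4 signs, a shorter footprint 2, and other pseudocounts, scaling and removal of weak calls 0. With a 2-fold rule (log2 of 1), matched calls of the 9 genes numbered 2 higher and 0 lower in dSnf2, 1 and 0 in CD, 0 and 0 in dSnAC, and 0 and 1 in dAT. Scaling to the mean call gave 0 lower in CD. Pairs within 50 bp gave 7 displaced calls in dAT, 8 in dSnAC and 7 in CD, and a 10 bp rule 27 in dSnf2, 20 in CD, 25 in dSnAC and 22 in dAT. The cause was not tested, apart from the fewer pairs at 50 bp. The dyad SD shares of a-specific calls stayed between 76.9% and 87.3% without STE2, with pairs within 50 bp or without weak calls. Single lists limit every comparison: a difference from WT cannot be separated from a difference between libraries.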
